A study of Mus musculus with 6 samples.

Results

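The axon guidance ligands and receptors were described in hematopoietic cells emerging in the mouse embryo, as 65 genes of the 24062 in the deposited count tables. Members were taken by their gene symbol: semaphorins of classes 3 to 7, ephrins, Slits and netrins as the ligands (34 genes), and plexins, EphA and EphB receptors, Robo receptors and Unc5 receptors as the receptors (31 genes). A further ephrin-B gene was not analysed here. The rule uses gene names and no measured value.

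Cells were sorted from aorta-gonad-mesonephros (AGM) regions of embryonic day 10.5 embryos, dissected with part of the vitelline and umbilical arteries. All embryos were C57BL/6JOlaHsd carrying the Gata2Venus reporter (G2V/+), in which the yellow fluorescent protein Venus is made from the Gata2 transcript. All sorted cells were positive for CD31, an endothelial surface protein that emerging blood cells keep, and for ckit, the stem cell factor receptor, so that bulging cells and cluster cells of the aorta fall into the same gate. The CD31+ckit+Vmed fraction (3 libraries) had medium and the CD31+ckit+Vhigh fraction (3 libraries) high Venus fluorescence, and no treatment is named for either. The comparison asks how expression differs between these levels of the Gata2 reporter. The fractions are thus bulk mixtures set by 1 fluorescence gate, in which fewer cells of a type and less RNA per cell cannot be told apart.

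Guidance cues were first described in growing axons, where a ligand on or near a target cell attracts or repels a growth cone that bears its receptor. Vessels use the same families: Eph receptors and ephrins keep arterial and venous endothelium apart, class 3 semaphorins act through neuropilin and plexin complexes, Slits through Robo receptors and netrins through Dcc and Unc5 receptors. Several of the receptors, among them Plxnd1, Robo4, Unc5b and Ephb4, are known from endothelial cells, and Sema4d, Sema4a and Sema7a also from blood cells.

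The upstream sequences that follow belong to members whose Vhigh values all lay below their Vmed values, as described further on. They show the 250 bases before a RefSeq transcript start (build GRCm38.p6), 5′ to 3′ on the gene's strand, where no annotated exon lies in the window, and CG dinucleotides are in capitals. The Efna1 window lies inside the span of the gene, before an internal start, as the window at its outer end overlaps an exon.

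Efna1, chr3:89279646-89279895, minus strand: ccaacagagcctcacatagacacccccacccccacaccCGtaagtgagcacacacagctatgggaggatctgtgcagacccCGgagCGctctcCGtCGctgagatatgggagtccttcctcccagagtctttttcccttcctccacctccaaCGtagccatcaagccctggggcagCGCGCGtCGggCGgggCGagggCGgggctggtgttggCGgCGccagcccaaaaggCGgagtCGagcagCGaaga

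Plxnb2, chr15:89180789-89181038, minus strand: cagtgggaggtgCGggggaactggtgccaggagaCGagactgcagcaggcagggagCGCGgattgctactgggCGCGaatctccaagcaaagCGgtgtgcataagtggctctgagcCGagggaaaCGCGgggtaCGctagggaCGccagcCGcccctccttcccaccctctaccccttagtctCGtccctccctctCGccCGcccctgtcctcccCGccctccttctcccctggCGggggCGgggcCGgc

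Plxna3, chrX:74328816-74329065, plus strand: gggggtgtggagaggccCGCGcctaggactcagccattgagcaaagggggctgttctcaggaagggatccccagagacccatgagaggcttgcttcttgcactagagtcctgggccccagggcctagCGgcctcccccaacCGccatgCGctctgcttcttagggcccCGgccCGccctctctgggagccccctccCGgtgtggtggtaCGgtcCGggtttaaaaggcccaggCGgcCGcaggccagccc

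Sema4a, chr3:88461183-88461432, minus strand: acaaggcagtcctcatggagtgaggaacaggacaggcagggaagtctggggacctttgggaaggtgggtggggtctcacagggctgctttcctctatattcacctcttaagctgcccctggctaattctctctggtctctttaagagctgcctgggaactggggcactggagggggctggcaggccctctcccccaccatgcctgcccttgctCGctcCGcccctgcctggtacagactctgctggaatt

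Of the 65 members, 56 had a promoter entry, with 72 windows in all. The CG dinucleotides numbered 18, 20 and 12 in the windows printed for Efna1, Plxnb2 and Plxna3 and 2 in that of Sema4a. Windows not printed held 3, 13 and 6 for Sema4a, 13 for Plxnb2 and 16 for Efna1, so the number depends on the start chosen. The median was 15 over the members' windows and 6 over all 32851 promoter windows. The letters GATAA, searched on both strands as a core of the sequences that GATA factors bind, occurred in 10 of the members' 72 windows (13.9%) and in 22.6% of all windows. The 11 windows of the members without overlap held no such match, and Efnb3 had no entry. Whether the higher CG content of the members' windows bears on these shares was not tested, and sequence outside the windows was not searched.

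Expression is given as CPM, the read count of a gene scaled by the sum of the counts on all genes of its library. The gene totals ranged from 8296831 to 12035206 reads per library, so that 3 counts, taken as the least that can be shown, corresponded to 0.249 to 0.362 CPM. Such limits cover counting error only. Between 28 and 59 members reached 3 counts in a library. The lowest number, 28, was found in Vhigh replicate 1 and the highest, 59, in Vhigh replicate 2, and these libraries also held the lowest and the highest share of all genes with 3 counts (37.8% and 72.4%). Of all members, 22 reached 3 counts in all 6 libraries, and Ntn5 had no count in any library, which left 64 members measured.

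**Figure D1:**
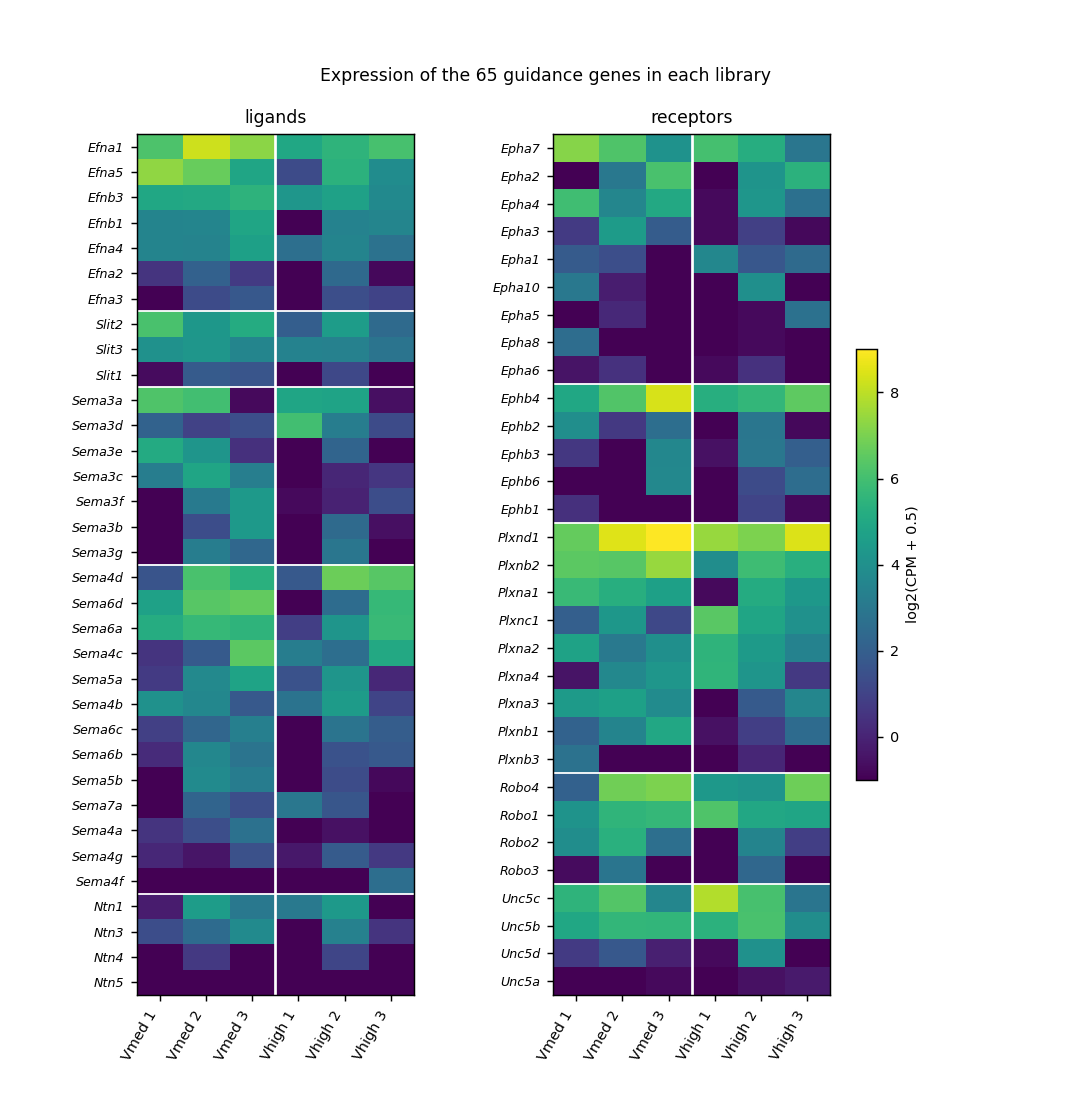
Expression of each of the 65 guidance genes (rows, log2(CPM + 0.5) by colour) in each of the 6 libraries (columns, Vmed left and Vhigh right of the vertical line), with ligands in the left panel and receptors in the right. Horizontal lines separate the families, and the column of Vhigh replicate 1, in which 29 members had no count, is the darkest.

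Per kilobase of annotated exon (RPKM), the ligand Efna1 and the endothelial semaphorin receptor Plxnd1 had the highest mean levels over the 6 libraries, with 61.0 and 37.6 RPKM. Efna1 ranged from 16.6 to 165 RPKM and Plxnd1 from 13.7 to 71.6 RPKM between libraries, so that the order of these neighbours is within their spread. Ephb4 (22.5 RPKM), Efna5 (14.6 RPKM), Robo4 (12.4 RPKM) and Plxnb2 (10.01 RPKM) came next, also with overlapping ranges. Efna1 was the highest in 3 libraries, Plxnd1 in 2 and Efna5 in 1, namely Vmed replicate 1 (40.5 RPKM), whereas Efna5 had 0.489 RPKM in Vhigh replicate 1.

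Summed over all 65 members, Vmed replicates 1, 2 and 3 had 1279, 2023 and 2288 CPM, and Vhigh replicates 1, 2 and 3 had 1054, 1126 and 1163 CPM. The Vhigh sums were therefore all below the Vmed sums, with a ratio of means of 0.598. The ligands made up 589, 929 and 748 CPM in Vmed and 199, 454 and 371 CPM in Vhigh (ratio 0.452), again without overlap. The receptors made up 690.5, 1095 and 1541 CPM in Vmed and 855, 672 and 792 CPM in Vhigh (ratio 0.697), and here the fractions overlapped, with Vhigh higher in replicate 1. Ligand sums were lower in Vhigh in each same-numbered pair, with ratios of 0.338, 0.489 and 0.497. Whether ligands and receptors differed in this was not tested.

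The count of single members without overlap followed the same direction. Of the 64 measured members, 7 (10.9%) had 3 Vhigh values below all 3 Vmed values, where 3.16% of all 20033 measured genes did. They were Efna1, Efnb3, Plxna3, Plxnb2, Sema3c, Sema4a and Slit3. With 1 library left out, so that fewer values had to be separated, the number was 17 and 13 without Vmed replicates 1 and 3, 20 and 11 without Vhigh replicates 2 and 3, and 7 to 10 without the others, beside 4.53% to 8.08% of all genes. No member had all Vhigh values above all Vmed values, where 2.89% of all genes did. In same-numbered pairs, 18 members (28.1%) were lower in Vhigh in 3 of 3 pairs (10.2% of all genes), and 3 members (4.69%), namely Epha1, Plxnc1 and Sema4d, were higher in 3 of 3 (10.1% of all genes). Within replicate 1, 37 members were lower and 17 higher in Vhigh, within replicate 2 33 lower and 30 higher, and within replicate 3 49 lower and 9 higher. Over all genes, 46.9%, 36.7% and 32.9% were lower and 27.2%, 59.7% and 39% higher in replicates 1, 2 and 3. Among the members, 57.8%, 51.6% and 76.6% were lower and 26.6%, 46.9% and 14.1% higher, the rest being equal in both fractions. In replicate 1 the shares that were higher were thus alike. In replicate 2 the members were nearly even, while more of all genes were higher than lower.

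By edgeR's quasi-likelihood test over 12688 genes, no member passed Benjamini-Hochberg adjustment at 0.05 (0 of the 53 tested), and none of all genes did (0%). The smallest adjusted p was 0.9998 among the members and 0.66 among all genes. Without adjustment, 4 members had p under 0.05 with lower values in Vhigh (1.17% of all genes tested): Efna1, Efna5, Plxnb2 and Sema3c. With the replicate number as a block, 2 of them, Efna1 and Plxnb2, were still under 0.05 without adjustment, while Efna5 had an unadjusted p of 0.098 and Sema3c of 0.062 (edgeR, adjusted p = 0.987). Library-size normalization also left Efna1 and Plxnb2. With each library left out, 2 to 3 members were under 0.05, but they were not the same ones each time. In edgeR's quasi-likelihood test, Efna1 had an unadjusted p of 0.143 without Vmed replicate 2 and 0.057 without Vhigh replicate 2. Plxnc1, higher in Vhigh, had an unadjusted p of 0.039 in that test without Vmed replicate 2. The shares of all genes under 0.05 in these fits were not counted. With all libraries and without the block, no member had an unadjusted p under 0.05 with higher values in that test (0.867% of all genes). The likelihood ratio test of edgeR and DESeq2, which called 21 and 51 genes in all, called 0 members. Without adjustment, 6 and 8 members were under 0.05 in them, with Sema3d in both and Plxnc1 in DESeq2 higher in Vhigh. The shares of all genes were not counted there either. The median log2 fold change (Vhigh over Vmed) of the tested members was -1.07 and that of all tested genes -0.02, and 42 members were below 0 and 11 above (79.2% below 0, against 51.1% of all genes). The spread behind these values was wide, with a biological coefficient of variation of 1.16 and a median standard error of 1.79 over the members. Labels do not say whether replicates came from separate litters, and p-values measure the spread between these samples.

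**Figure D2:**
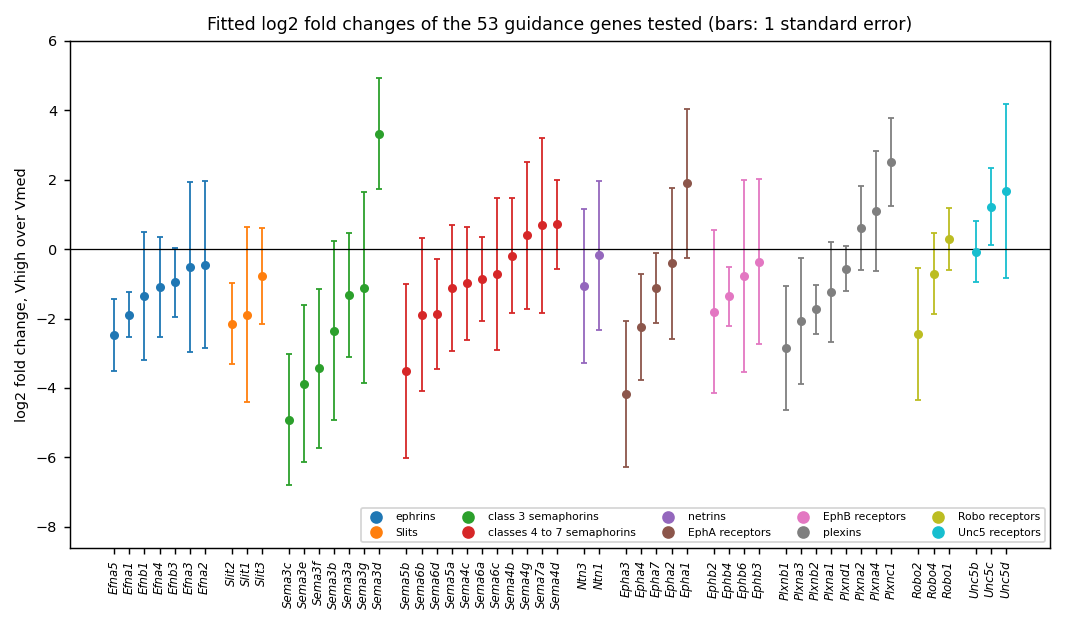
Fitted log2 fold changes (vertical axis, Vhigh over Vmed) of the 53 guidance genes tested, ordered within each family by value, with bars of 1 standard error. Of these genes, 42 lie below 0 and 11 above, and many bars cross 0.

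Among the ligands, the ephrins had the lowest ratio of summed expression. These membrane-bound ligands of Eph receptors summed to 289.9, 462 and 283 CPM in Vmed replicates 1, 2 and 3 and 56.5, 141 and 114 CPM in Vhigh (ratio 0.301), with no overlap. All 7 ephrins tested had a fitted log2 fold change below 0, from -2.47 to -0.45 with a median of -1.10. Leaving out each library in turn kept the log2 ratio of the summed expression between -2.01 and -1.43.

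Efna1, an A-type ephrin anchored by a lipid tail and known from endothelium, lies on chromosome 3 (GRCm38) from 89271733 to 89281142. It had 73.2, 301 and 152 CPM in Vmed replicates 1, 2 and 3 and 30.3, 44.8 and 68.2 CPM in Vhigh. Every Vhigh library was below every Vmed library, though the lowest Vmed and the highest Vhigh values were close. The fitted log2 fold change of -1.89 had a standard error of 0.65 (edgeR's quasi-likelihood test, unadjusted p = 0.018, adjusted p = 0.9998). The exact two-sided permutation test gave p = 0.1, the smallest that 3 libraries against 3 allow.

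Efna5, another A-type ephrin, repels axons in many parts of the brain. It had 163, 101 and 29.2 CPM in Vmed and 1.97, 42.5 and 14.2 CPM in Vhigh. The fractions overlapped, as Vmed replicate 3 was below Vhigh replicate 2, but Vhigh was lower in 3 of 3 pairs. Its fitted log2 fold change of -2.47 had a standard error of 1.03 (edgeR's quasi-likelihood test, unadjusted p = 0.046, adjusted p = 0.9998).

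The B-type ephrins span the membrane and signal in both directions. Efnb3 had 30.7, 32.5 and 43.8 CPM in Vmed and 18.4, 25.8 and 13.0 CPM in Vhigh, without overlap (log2 fold change -0.96, standard error 1.00). Efnb1 had 11.0, 11.3 and 28.8 CPM in Vmed and 0, 10.2 and 11.2 CPM in Vhigh, so that the fractions met near 11 CPM. Of the remaining ephrins, Efna4 was lower in Vhigh in 2 of 3 pairs, and Efna2 and Efna3 stayed below 5 CPM in every library.

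The Slits, secreted ligands of Robo receptors, summed to 86.8, 40.5 and 48.9 CPM in Vmed and 13.8, 34.5 and 11.7 CPM in Vhigh (ratio 0.341), also without overlap. Slit2, the most abundant of them by CPM, had 70.4, 18.9 and 35.2 CPM in Vmed and 3.47, 22.6 and 4.99 CPM in Vhigh. Vhigh was lower in replicates 1 and 3 and higher in replicate 2 (log2 fold change -2.15, standard error 1.17). Slit3 had 16.4, 18.4 and 11.1 CPM in Vmed and 10.3, 10.1 and 6.73 CPM in Vhigh. Its values did not overlap and varied little within a fraction, and its fitted log2 fold change of -0.78 (standard error 1.38) was the smallest in size among the Slits.

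Class 3 semaphorins are secreted and most of them signal through neuropilins with plexins. They summed to 123, 129 and 58.2 CPM in Vmed and 91.5, 53.4 and 5.32 CPM in Vhigh (ratio 0.483), with overlap. Of these, 6 of the 7 had a fitted log2 fold change below 0 and Sema3d had one above.

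Sema3c, a cue of the cardiac outflow tract that binds neuropilins, lies on chromosome 5 from 17574281 to 17730268. It had 8.92, 28.6 and 9.26 CPM in Vmed and 0, 0.552 and 0.997 CPM in Vhigh, that is 78, 237 and 90 counts against 0, 6 and 12. This was the lowest fitted value of any tested member, a log2 fold change of -4.91 with a standard error of 1.88 (edgeR's quasi-likelihood test, unadjusted p = 0.047, adjusted p = 0.9998). It stayed between -5.85 and -4.25 when each library was left out in turn. The exact two-sided permutation test gave p = 0.1, again the smallest possible.

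Sema3d went the other way in value, with 3.89, 1.45 and 2.16 CPM in Vmed and 62.2, 9.02 and 1.91 CPM in Vhigh. Its log2 fold change of 3.33 (standard error 1.59) rested on Vhigh replicate 1, without which it was 0.94. Sema3a, the classic repellent that binds Nrp1, had 76.4, 62.3 and 0.103 CPM in Vmed and 29.2, 27.3 and 0.166 CPM in Vhigh. Replicate 3 held 1 and 2 counts of Sema3a, so the difference between replicate numbers was far larger than that between fractions. Sema3e, the member of this class that binds Plxnd1 without a neuropilin, had 34.0, 18.2 and 0.824 CPM in Vmed and 0, 4.14 and 0 CPM in Vhigh. Its values were lower in Vhigh in 3 of 3 pairs and the fractions overlapped (log2 fold change -3.88, standard error 2.25). The replicate block gave -5.90 (standard error 2.38), and without Vhigh replicate 2 the remaining Vhigh libraries were both at 0. Sema3g, known from arterial endothelium, had 0, 8.92 and 4.53 CPM in Vmed and 0, 6.997 and 0 CPM in Vhigh, which left it at 0 in 3 of the 6 libraries.

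Semaphorins of classes 4 to 7 are bound to the membrane. They summed to 86.2, 268 and 337 CPM in Vmed and 29.5, 193 and 239 CPM in Vhigh (ratio 0.668), lower in Vhigh in every pair but overlapping. Sema4d, a ligand of B-type plexins that is also found on blood cells, had the highest mean CPM over the 6 libraries, with 2.52, 69.3 and 40.04 CPM in Vmed and 3.00, 106 and 84.1 CPM in Vhigh. It was higher in Vhigh in 3 of 3 pairs, and replicate 1 was low in both fractions (log2 fold change 0.71, standard error 1.28). In Vmed, Sema6d was above Sema4d in each library. Sema6d, a ligand of Plxna1, had 25.7, 83.5 and 97.3 CPM in Vmed and 0, 5.25 and 51.8 CPM in Vhigh. It was lower in Vhigh in 3 of 3 pairs, with overlap (log2 fold change -1.86, standard error 1.58). This value was -4.21 (standard error 1.44) with the replicate block and -4.82 without Vhigh replicate 3. Sema4a had 0.915, 2.17 and 6.07 CPM in Vmed and 0, 0.184 and 0 CPM in Vhigh, which is 8, 18 and 59 counts against 0, 2 and 0. Its fractions did not overlap, and it was too low to be tested. Sema7a, the lipid-anchored ligand of Plxnc1, had 0, 4.22 and 2.16 CPM in Vmed and 7.22, 2.67 and 0 CPM in Vhigh, with no common order between the fractions.

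The netrins were low throughout, at 2.40, 28.7 and 20.7 CPM summed in Vmed and 7.69, 32.3 and 0.914 CPM in Vhigh. Ntn1, the classic attractant of commissural axons, had 0.343, 22.4 and 7.51 CPM in Vmed and 7.69, 20.5 and 0 CPM in Vhigh. Ntn3 had 2.06, 5.18 and 13.2 CPM in Vmed and 0, 10.1 and 0.914 CPM in Vhigh, and its exons overlap those of Tbc1d24. Ntn4, a basement membrane netrin, had 9 counts in Vmed replicate 2, 18 counts in Vhigh replicate 2 and 0 elsewhere. The fractions of each netrin overlapped.

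**Figure D3:**
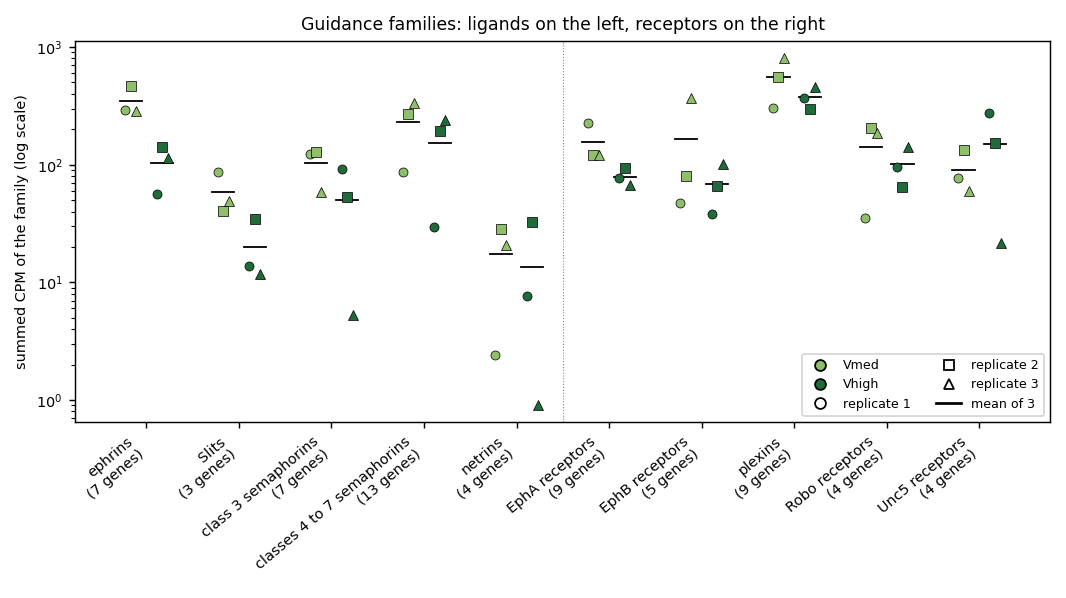
Summed CPM (vertical axis, log scale) of each guidance family in each library, Vmed in light and Vhigh in dark green, with symbols for the replicate number and a line at the mean of 3 libraries. The Vhigh points of ephrins, Slits and EphA receptors all lie below the Vmed points, and those of the other 7 families overlap.

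Among the receptors, the EphA family was the one whose sums did not overlap. EphA receptors, which mainly bind A-type ephrins, summed to 225, 119.8 and 121 CPM in Vmed and 77.7, 93.6 and 66.9 CPM in Vhigh (ratio 0.511). Epha7 had 146, 74.7 and 16.7 CPM in Vmed and 65.6, 36.8 and 7.15 CPM in Vhigh. Vhigh was lower in 3 of 3 pairs by a similar ratio, while replicate 1 was the highest and replicate 3 the lowest in both fractions, so that the fractions overlapped (log2 fold change -1.13, standard error 1.01, and 0.55 with the replicate number as a block). Epha2, a receptor of Efna1, had 0, 7.59 and 69.0 CPM in Vmed and 0, 17.6 and 42.5 CPM in Vhigh. It was absent from the counts of replicate 1 in both fractions and highest in replicate 3 in both.

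EphB receptors bind B-type ephrins. Their sums were 47.4, 79.4 and 369 CPM in Vmed and 38.3, 66.4 and 101 CPM in Vhigh (ratio 0.415). Most of this was Ephb4, the receptor that marks venous endothelium, with 30.7, 78.3 and 339 CPM in Vmed and 38.1, 48.4 and 91.9 CPM in Vhigh. The ratio rested on Vmed replicate 3, without which the log2 fold change of Ephb4 was 0.13 in place of -1.36 (standard error 0.85) and the log2 ratio of the EphB sums 0.11 in place of -1.27. Ephb2 had 14.9, 1.08 and 5.66 CPM in Vmed and 0, 7.18 and 0.0831 CPM in Vhigh, with overlap.

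Plexins, the signalling receptors of semaphorins, summed to 306, 558 and 806 CPM in Vmed and 368, 296 and 460.1 CPM in Vhigh (ratio 0.673). Plxnb2, which binds class 4 semaphorins, lies on chromosome 15 from 89155549 to 89180788. It had 89.0, 84.9 and 177 CPM in Vmed and 14.6, 59.2 and 38.8 CPM in Vhigh, without overlap. Its fitted log2 fold change of -1.73 had a standard error of 0.70 (edgeR's quasi-likelihood test, unadjusted p = 0.036, adjusted p = 0.9998).

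Plxna3, a neuropilin partner, had 21.6, 25.1 and 13.6 CPM in Vmed and 0, 3.04 and 11.5 CPM in Vhigh. Its fractions did not overlap, with replicate 3 of both close together (log2 fold change -2.07, standard error 1.82). Plxnd1, the endothelial receptor of Sema3e, had 100.1, 361 and 523 CPM in Vmed and 177, 129 and 357 CPM in Vhigh. It was the plexin of highest expression in each library, and the fractions overlapped (log2 fold change -0.56, standard error 0.65). Plxnc1, the receptor of Sema7a, had 3.55, 19.0 and 1.75 CPM in Vmed and 85.8, 29.2 and 16.3 CPM in Vhigh. Vhigh was higher in 3 of 3 pairs, and 1 Vmed value lay above the lowest Vhigh value (log2 fold change 2.499 with a standard error of 1.27, unadjusted p = 0.091, adjusted p = 0.9998 in edgeR's quasi-likelihood test).

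Robo receptors summed to 35.5, 205 and 185 CPM in Vmed and 94.9, 64.6 and 142 CPM in Vhigh (ratio 0.708). Robo4, the endothelial member, had 3.78, 112 and 129 CPM in Vmed and 19.7, 17.6 and 111 CPM in Vhigh. It was high in replicate 3 of both fractions and differed most in replicate 2. Robo1, the main Slit receptor of axons, had 16.9, 45.9 and 50.3 CPM in Vmed and 75.2, 31.6 and 29.2 CPM in Vhigh, with no common order (log2 fold change 0.29, standard error 0.91).

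Unc5 receptors, which carry the repulsive response to netrins, were the family whose mean was higher in Vhigh, with 76.4, 132 and 60.01 CPM in Vmed and 276, 152 and 21.7 CPM in Vhigh (ratio 1.67). Unc5c, a neuronal member, made up most of the difference, with 45.1, 80.6 and 11.6 CPM in Vmed and 233, 66.8 and 6.81 CPM in Vhigh. Without Vhigh replicate 1 its log2 fold change was -0.48 in place of 1.22 (standard error 1.11). Unc5b, the endothelial member, had 30.2, 48.7 and 47.9 CPM in Vmed and 42.6, 68.8 and 14.5 CPM in Vhigh, a log2 fold change of -0.07 (standard error 0.89).

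**Figure D4:**
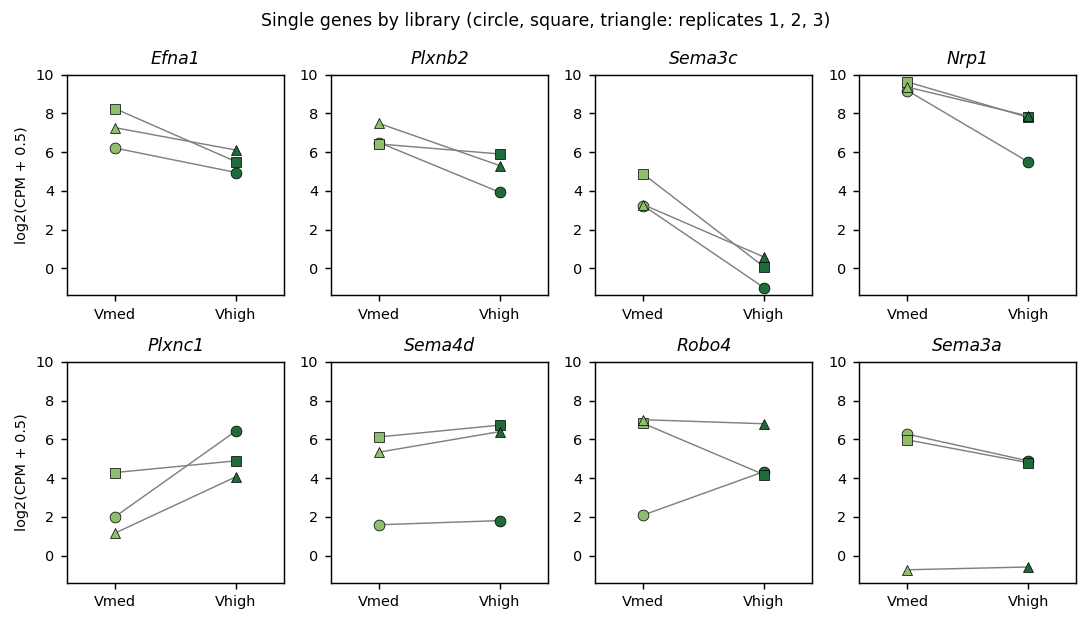
Expression (vertical axis, log2(CPM + 0.5)) of 7 guidance genes and the co-receptor Nrp1 in Vmed and Vhigh libraries, with grey lines joining libraries of the same replicate number. All Vhigh points lie below all Vmed points for Efna1, Plxnb2, Sema3c and Nrp1, Plxnc1 and Sema4d are higher in Vhigh in 3 of 3 pairs, and Robo4 and Sema3a differ more between replicate numbers than between fractions.

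The replicate number with the highest level was the same in both fractions for 28 of the 60 members with 3 counts in a library of each fraction, where 52.9% of all such genes did so. Replicate 2 was the highest in both for 13 members (22.8% of all such genes), among them Sema4d, Unc5b, Ntn1 and Sema3g. Replicate 3 was the highest in both for 10 members (18.0% of all such genes), among them the endothelial receptors Ephb4, Plxnd1 and Robo4. Replicate 1 was the highest in both for Epha1, Epha7, Plxna2, Sema3a and Sema3d (12.1% of all such genes).

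Co-receptors and cytoplasmic effectors of guidance signalling were examined as a list of 66 genes, of which 63 were in the files and 58 tested. None passed the adjusted threshold, and 1, Nrp1, had an unadjusted p under 0.05 with lower values in Vhigh (1.17% of all genes tested). The median log2 fold change of the list was -0.36, with 44 genes below 0 and 14 above. Over all genes tested the median was -0.02, with 51.1% below 0. Nrp1, the neuropilin through which Sema3a and Sema3c act and a co-receptor of vascular endothelial growth factor, had 578, 785 and 653 CPM in Vmed and 44.6, 221 and 232 CPM in Vhigh. Every Vhigh value was below every Vmed value by a wide gap. The fitted log2 fold change of -2.09 had a standard error of 0.57 (edgeR's quasi-likelihood test, unadjusted p = 0.0053, adjusted p = 0.9998). It was -2.35 (standard error 0.42, adjusted p = 0.669 in that test) with the replicate number as a block. With the block and edgeR's likelihood ratio test, which called 74 genes in all, Nrp1 had an adjusted p of 0.0082, the single call in the list, and 0 members were called. The share of all genes with an unadjusted p under 0.05 in the block fit was not counted. With the block and the quasi-likelihood test, 3 genes of the list were lower and 1 higher in Vhigh at an unadjusted p under 0.05. Besides Nrp1, these were Dpysl2 and Flrt3, with log2 fold changes of -1.11 and -1.02, and Rac2, known from blood cells, with 1.31 (standard error 0.27, adjusted p = 0.708 in edgeR). Rac2 had 294, 249.6 and 73.4 CPM in Vmed and 624, 511 and 277 CPM in Vhigh, higher in 3 of 3 pairs with overlap. Nrp2, the other neuropilin, had 18.9, 117 and 249 CPM in Vmed and 35.5, 48.9 and 176 CPM in Vhigh (log2 fold change -0.58, standard error 0.92). The netrin receptors Dcc and Neo1 had log2 fold changes of -1.03 (standard error 2.75) and -0.65 (standard error 0.95), with overlapping fractions.

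Markers of other cell types differed between the same libraries. Summed over 10 genes each, mesenchymal and mural markers had 1620, 3155 and 4729 CPM in Vmed and 588, 579 and 360 CPM in Vhigh, and epithelial markers 268, 284 and 359 CPM against 94.7, 159 and 104 CPM. Macrophage markers (9 of 10 measured) had 1414, 902 and 935 CPM in Vmed and 461, 121 and 127 CPM in Vhigh. These lists were lower in Vhigh without overlap, as were the ephrins, Slits, EphA receptors and the ligands as a whole, and the list of hematopoietic markers, which includes Kit, was higher without overlap, with 291, 629 and 535 CPM in Vmed and 954, 1913 and 1964 CPM in Vhigh. Endothelial markers had 1405, 4290 and 5078 CPM in Vmed and 1197, 1541 and 3689 CPM in Vhigh, with overlap, and were lowest in replicate 1 of both fractions, as Robo4 was in Vmed. Neural markers had 330, 124 and 54.7 CPM in Vmed and 70.4, 75.0 and 22.4 CPM in Vhigh, highest in Vmed replicate 1. Efna5, Slit2 and Epha7, picked after their values were seen, were also highest there. Other members went the other way, as Ntn1 (0.343 CPM) and Plxna4 (0.229 CPM) were lower there than in the other Vmed libraries. Erythroid markers overlapped, from 154 to 527 CPM in Vmed and 95.8 to 233 CPM in Vhigh. The adult globin genes Hba-a1, Hba-a2, Hbb-bt and Hbb-bs were at 0 in every library. Alignments that were not unique, 41.3% to 57.7% of a library, were counted on no gene, and whether these 0 counts show absence was not tested. Megakaryocyte markers ranged from 680 to 1587 CPM in Vmed and from 662 to 968 CPM in Vhigh. The part of these cell types in the expression of the guidance genes was not tested. Gata2 itself, whose reporter defined the gates, differed by 0.78 on the log2 scale with a standard error of 0.73 (edgeR, adjusted p = 0.9998). The paper reports a higher Gata2 transcript level in Vhigh, by Student's t test on length-scaled values of this gene alone, which is another measure and test.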

How the data were processed

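RNA of CD31+ckit+Vmed and CD31+ckit+Vhigh AGM cells was amplified with the SMARTer protocol and sequenced as single reads of 50 bases. Reads were aligned by the authors to the GRCm38/mm10 build, and the deposited values are whole counts for each gene that were not normalized. The submitters' processing notes name TopHat, Bowtie 1.1.2 and HTSeq, and the annotation and strand setting are not given in the sources used here, so reads of overlapping or antisense genes cannot be told apart (the exons of 17 members overlap another gene). Between 55.0% and 77.2% of alignments carried no gene name and stayed out.

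CPM were computed from the gene totals, and RPKM from GENCODE M21 exon lengths. Vhigh was set against Vmed in edgeR 4.0.16 under R 4.3.3 (filterByExpr, TMM, quasi-likelihood test, Benjamini-Hochberg adjustment over all genes, fraction as the only term). Exact permutation of log2(CPM + 0.5) covered 20 arrangements. Libraries with the same replicate number in the labels deviated together over all tested genes (r = 0.21, 0.21 and 0.39, with -0.29 to -0.01 for other pairs). For this reason the number was also fitted as a block. Over the tested members alone, r was 0.17, 0.10 and 0.42 for the same number and -0.33 to 0.24 for other pairs, so these ranges overlapped. No libraries were duplicates (chi-square per degree of freedom 93.7 or more). Alternatives were RLE and library-size normalization, no filter, the likelihood ratio test, DESeq2 1.42.0, the block and each library left out. Leaving out libraries or pairs for untested counts was added after seeing the data. Members and lists were chosen with earlier results of these data known. Named by rule were the leading pair of each family by mean CPM, members with an unadjusted p under 0.05 or without overlap, and a list known from vessels and blood. Other members named, and the windows printed, were chosen after their values were seen.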

Additional observations from a re-analysis of the deposited data

How the results depend on the processing

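No alternative called a member. Over all genes, 37 were called without the filter, 21 by the likelihood ratio test, 51 by DESeq2 and 74 by the likelihood ratio test with the replicate block, which also called 1 other pathway gene (Nrp1), and 0 to 1 with each library left out (1 without Vhigh replicate 1). The quasi-likelihood test with the replicate block called 0 genes. Without adjustment, members under 0.05 numbered 6 by the likelihood ratio test, 8 by DESeq2 and 9 by the likelihood ratio test with the block. Those higher in Vhigh were Sema3d in the first 2 of these and Plxnc1 in the last 2. The members' median log2 fold change was between -1.49 and -0.59 with each library left out. Of 28 named genes tested, 21 kept their sign under all 13 alternatives. Epha2 was 0.17 with the replicate block under either test, and Sema7a -0.65 and -0.68. The block changed no other sign and no adjusted call of a named gene. In the quasi-likelihood test it left 2 of 4 members (Efna1 and Plxnb2) with an unadjusted p under 0.05, as library-size normalization did. It moved the log2 fold change of 9 named genes by over 1.5 times away from 0, among them Ephb2 (-5.22), Sema3e (-5.90), Sema6d (-4.21), Plxna3 (-3.53), Ntn3 (-3.23), Sema3g (-2.89) and Efnb1 (-2.36), and of 6 toward 0. With each library left out, the log2 fold change ranged from -1.66 to 2.41 for Epha2, -1.84 to 0.13 for Ephb4, -1.15 to 1.21 for Ntn1, -0.40 to 0.61 for Robo1, -0.83 to 1.70 for Sema7a, -0.45 to 0.39 for Unc5b and -0.48 to 1.84 for Unc5c, and the log2 ratio of the EphB sums from -1.71 to 0.11. The sums of netrins (-2.00 to 0.24) and Unc5 receptors (-0.05 to 1.25) also changed sign. The cause was not tested. Members without overlap numbered 7 to 20 lower and 1 to 2 higher in Vhigh with 1 library left out, since fewer values have to be separated: 17 and 13 lower without Vmed replicates 1 and 3, and 20 and 11 without Vhigh replicates 2 and 3. The shares of all genes were then 4.53% to 8.08% lower and 4.42% to 9.94% higher. With 2 pairs, 22 to 29 members were lower in each (15.6% to 19.4% of all genes) and 3 to 9 higher (14.7% to 25.1%). For lack of counts, 12 members could not be tested.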
